A study of Danio rerio with 9 samples.

Results

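Migratory cardiac neural crest cells of zebrafish embryos were compared with the non-crest cells of the same tissue at 17 h post-fertilisation, across all genes with enough reads for a test. The comparison used 6 of the 9 libraries of the study, 3 of cardiac crest and 3 of non-crest, and 19648 of 31953 annotated genes passed the expression filter. Transcripts of cells sorted by fluorescence were counted in bulk RNA-seq libraries, and the study's remaining libraries, of trunk crest from an older stage and another fish line, were not used here. Every embryo of both groups carried the transgenes -4.9sox10:GAL4-UAS-cre together with UAS:NfsB-mCherry and with myl7:nucGFP. In this line sox10 regulatory sequence drives the activator GAL4, which switches on Cre recombinase and a nitroreductase fused to the red protein mCherry, and the heart muscle promoter of myl7 drives a green nuclear protein. Tissue reached from the midbrain-hindbrain boundary back to somite 6. The mCherry-positive cells were taken as cardiac crest and the mCherry-negative cells as non-crest, so the reporter alone separates the groups. The labels place the embryos at the 16-somite stage, whereas the name of the deposited count table gives 20 somites; the labels are followed here. The labels do not state whether each replicate was a separate pool of embryos, and p-values therefore measure only how far these libraries differ, in part perhaps for technical reasons.

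Neural crest cells form at the edge of the neural plate, leave the dorsal neural tube and migrate, and they form pigment cells, the peripheral nervous system and bone and cartilage of the head. Cardiac crest is the part of this population that migrates towards the heart and pharyngeal arches. Its specification uses transcription factors of the SoxE, AP-2, Twist, Snail and ETS families, and its migration uses cadherins and receptors for semaphorins, chemokines and growth factors. Non-crest cells of the dissected region include skin, endothelium, blood precursors, somite muscle, neural tube, heart and endoderm.

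Each library had 34062539 to 45172404 reads in genes, and the 10 most abundant genes took 9.37% to 15.6% of a library. Levels are given in CPM, reads per 1000000 reads in genes of the library, in the order of replicates 1, 2 and 3. Both libraries numbered 3 stood apart from the others of their group. Across genes, log2 CPM values of cardiac crest replicates 1 and 2 had a Pearson correlation of 0.939, while replicate 3 had 0.900 and 0.893 with them. Non-crest replicate 3 had 0.842 and 0.841 with non-crest replicates 1 and 2, against 0.8995 between those. At 10 CPM or more, 134 genes were over 10 times higher in cardiac crest replicate 3 than in each of the other cardiac crest libraries, against 2 and 4 genes for replicates 1 and 2. In non-crest replicate 3, 143 genes were over 10 times lower than in both other non-crest libraries, against 5 and 2 genes for replicates 1 and 2. In the other direction, 8 genes were over 10 times lower in cardiac crest replicate 3, against 4 and 1 genes for replicates 1 and 2. Over 10 times higher were 31 genes in non-crest replicate 3, against 7 and 40 genes for replicates 1 and 2. Of 19648 tested genes, 1697 in cardiac crest replicate 2 and 1697 in replicate 3 were more than 2-fold above both others. For non-crest replicates 2 and 3 these counts were 2228 and 1528. Because both libraries numbered 3 had the lowest correlations within their group, the results below are also given without replicate 3 of both groups.

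More genes were lower than higher in cells sorted as cardiac crest. Of the 19648 genes tested, 294 (1.5%) passed edgeR's quasi-likelihood test at a Benjamini-Hochberg adjusted p below 0.05, 57 of them higher in cardiac crest (0.29%) and 237 lower (1.21%). Genes that fell did so steeply, with a median log2 fold change of -5.61 and 83 of the 237 past 100-fold. At the median they stood at 0.757 CPM in cardiac crest, against 36.8 CPM in non-crest, and 7 of them had 0 reads in the 3 cardiac crest libraries together. Genes that rose had a median log2 fold change of 3.33, and 8 of the 57 were past 100-fold. The median of their levels was 64.4 CPM in cardiac crest, against 7.80 CPM in non-crest, so most remained measurable in non-crest cells. The median over all tested genes was -0.04. In bulk libraries, fewer cells of a type and less RNA per cell cannot be told apart, which applies to each gene group described here.

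**Figure D1:**
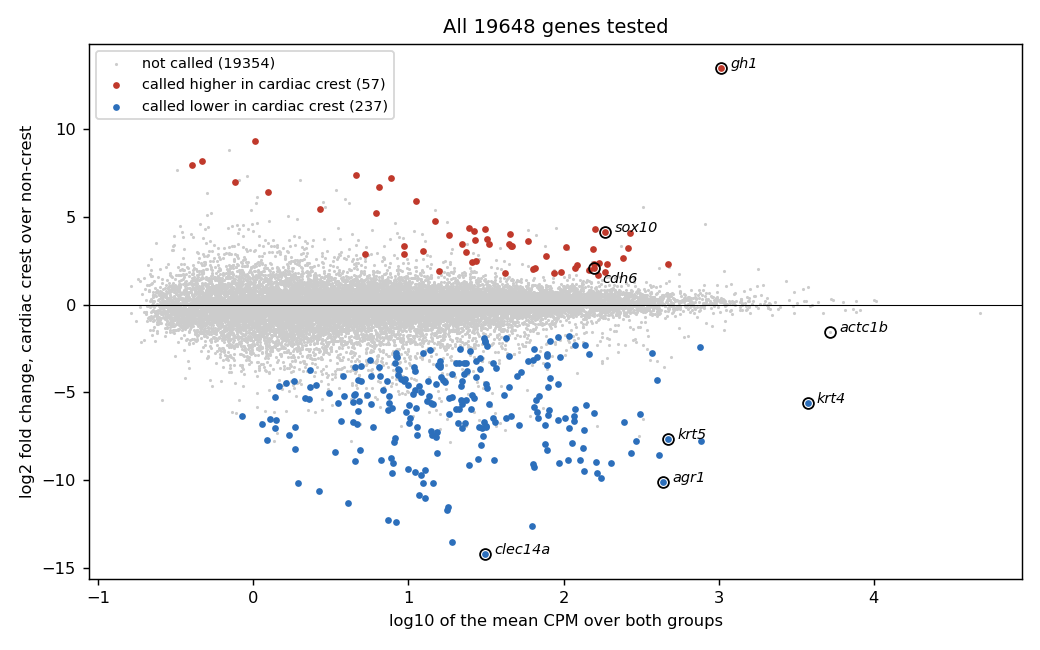
Each point is a gene, with the log10 of its mean CPM over both groups on the x axis and its log2 fold change, cardiac crest over non-crest, on the y axis; coloured points passed edgeR's test. The 237 genes called lower reach down to -14.25 for clec14a, and gh1 stands alone at the top at 13.48.

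In 294 of 294 called genes the 3 libraries of one group lay wholly above those of the other. Such separation was found in 8.76% of all tested genes with cardiac crest above and in 8.26% with cardiac crest below. The test itself favours genes whose groups are separate, so this is no added evidence for the calls. The calls depended on the number of libraries: 13 of the 57 higher and 66 of the 237 lower genes were called in each of the 6 fits that left out 1 library. With cardiac crest replicate 1 left out 102 genes were called, and with replicate 2 left out 93. The same for non-crest replicates 1 and 2 gave 171 and 163 genes. Without replicate 3 of both groups 752 of 20068 genes (3.75%) were called, 140 higher (0.698%) and 612 lower (3.05%). They included 54 of the 57 higher and 210 of the 237 lower genes. With only cardiac crest replicate 3 left out, 361 of 20336 genes (1.78%) were called, 53 higher (0.261%) and 308 lower (1.51%). With only non-crest replicate 3 left out, 360 of 20446 genes (1.76%) were called, 74 higher (0.362%) and 286 lower (1.4%). Of the 237 lower genes 28 belong to the epidermis, endothelium and blood lists described here, and 188 belong to no list or gene family examined; of the 57 higher genes 45 belong to none.

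The identity markers separated the groups in the direction of their labels. Transcripts of sox10, the SoxE factor gene whose regulatory sequence drove the sorted reporter, stood at 363, 445 and 244 CPM in cardiac crest, against 27.6, 26.8 and 8.92 CPM in non-crest. The log2 fold change was 4.12 ± 0.47 (± SE; the standard error comes from the log2 fold change and its quasi-likelihood F statistic, dividing the first by the root of the second, with n = 3 libraries each). As a check of the sort it is no independent finding. The ETS factor gene ets1, known from cranial and cardiac crest, stood at 262, 129 and 166 CPM in cardiac crest, against 28.0, 24.00 and 8.72 CPM in non-crest (3.29 ± 0.49, edgeR adjusted p = 0.0179). Skin keratin gene krt5 had 3.83, 4.84 and 5.13 CPM in cardiac crest, against 714, 1128 and 975 CPM in non-crest (-7.68 ± 0.41, edgeR adjusted p = 0.000528). For cdh5, the cadherin gene of endothelial junctions, the values were 0.515, 0.499 and 0.0991 CPM in cardiac crest, against 49.3, 39.6 and 34.2 CPM in non-crest (-6.75 ± 0.69, edgeR adjusted p = 0.00371, 47.2% of its bases shared with another gene). In each of the 4 genes the groups did not overlap, and in sox10 and ets1 non-crest replicate 3 was the lowest library.

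Among 34 tested crest regulators 3 rose, 0 fell and 31 did not pass, against 0.29% of all tested genes rising, and the median log2 fold change was 0.62. The third to pass, after sox10 and ets1, was id2a, which encodes an inhibitor of basic helix-loop-helix factors and stood at 922, 961 and 456 CPM in cardiac crest, against 161, 219 and 108 CPM in non-crest (2.302 ± 0.40, edgeR adjusted p = 0.0326). It was lost in most fits that left out a library (highest adjusted p = 0.171 without cardiac crest replicate 2), and of the 3 only sox10 passed in every fit that left out a library. Transcripts of tfap2a, the AP-2 factor gene needed early in crest, were level across cardiac crest at 419, 418 and 434 CPM, against 61.8, 63.1 and 7.99 CPM in non-crest. Its log2 fold change of 3.35 ± 0.65 missed the threshold with all 6 libraries (edgeR adjusted p = 0.0510) and passed without replicate 3 of both groups (0.00303). Within non-crest, replicate 3 was the lowest library.

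Without replicate 3 of both groups, 10 of 35 tested crest regulators rose and 0 fell (0.698% of all tested genes rose). The 10 were sox10, ets1, id2a, tfap2a and 6 others: prdm1a, twist1a, tfap2e, zeb2a, sox5 and mych. For prdm1a, a zinc finger factor gene used in crest and muscle, levels were 369, 326 and 77.8 CPM in cardiac crest, against 54.1, 45.1 and 47.7 CPM in non-crest (log2 fold change 2.89 without replicate 3, edgeR adjusted p = 0.00377, and 0.103 with all 6). The mesenchymal factor gene twist1a lay at 979, 715 and 324 CPM in cardiac crest, against 145, 111 and 215 CPM in non-crest (edgeR adjusted p = 0.00647 without replicate 3, and 0.136 with all 6). In both, cardiac crest replicate 3 was the lowest of its group, and for twist1a non-crest replicate 3 the highest of its own. For tfap2e, an AP-2 gene of pigment precursors, values were 21.2, 20.6 and 5.43 CPM in cardiac crest, against 0.7003, 1.35 and 0 CPM in non-crest. The groups did not overlap, and its edgeR adjusted p without replicate 3 was 0.0112. The remaining 3, zeb2a, sox5 and mych, named because they complete the count, had log2 fold changes between 1.39 and 1.76 without replicate 3.

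Some crest regulators did not separate the groups, for reasons that were not tested. The genes given here were chosen after their values were seen. Levels of msx3, a homeobox gene of the dorsal neural tube, were 278, 379.7 and 599 CPM in cardiac crest, against 277, 402 and 77.5 CPM in non-crest. Those of zic2b, a zinc finger gene of the same tissue, were 195, 261 and 159 CPM in cardiac crest, against 183, 311 and 69.9 CPM in non-crest. The Snail gene snai1a stood at 20.9, 11.04 and 26.8 CPM in cardiac crest, against 16.2, 20.1 and 85.3 CPM in non-crest. In these 3 genes the groups overlapped, with log2 fold changes of 0.80, 0.19 and -1.15 and edgeR adjusted p of 0.659, 0.930 and 0.654. Another Snail gene, snai2, had 153, 117 and 90.1 CPM in cardiac crest, against 39.6, 66.7 and 45.9 CPM in non-crest without overlap (1.26 ± 0.35, edgeR adjusted p = 0.178).

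**Figure D2:**
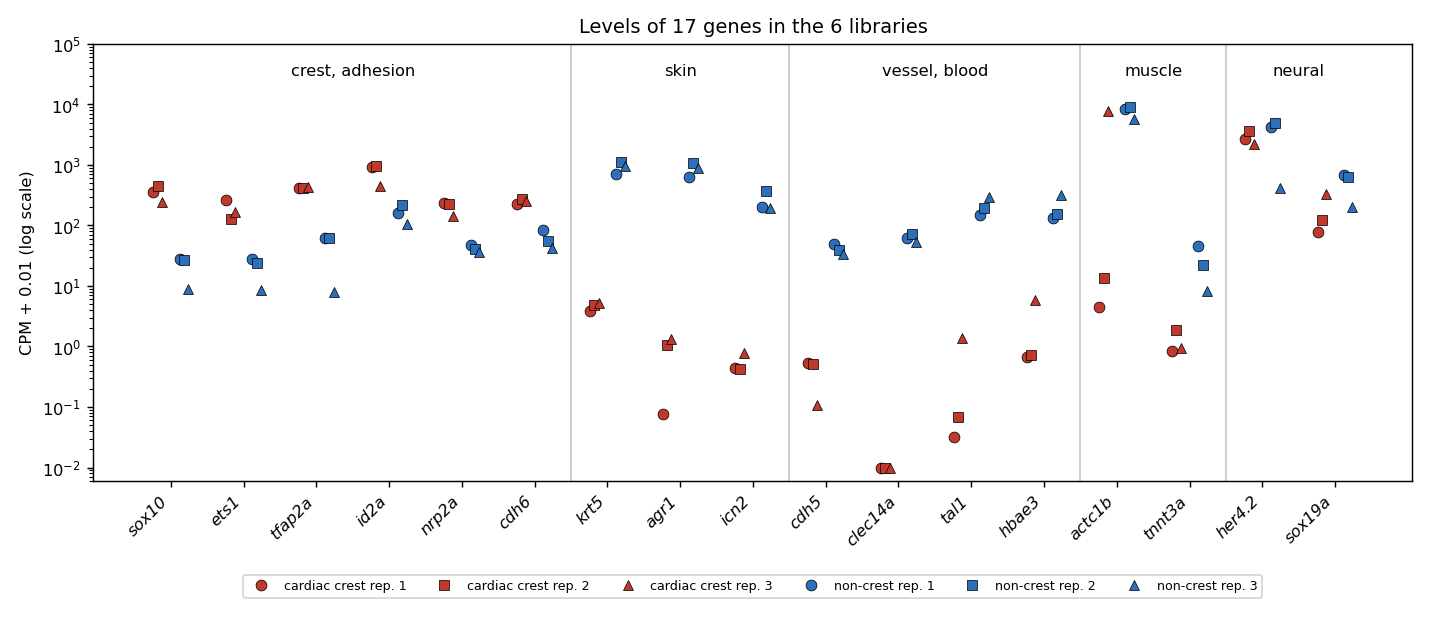
CPM plus 0.01 on a log axis for 17 genes, with cardiac crest (red, left) beside non-crest (blue, right) and 1 symbol per replicate; genes are grouped as crest and adhesion, skin, vessel and blood, muscle and neural. The cardiac crest libraries of krt5 sit between 3.83 and 5.13 CPM, below all non-crest libraries, while actc1b reaches 7953 CPM in cardiac crest replicate 3 alone of its group.

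Of 45 tested genes for crest adhesion and guidance 3 rose and 0 fell, against 0.29% and 1.21% of all tested genes. Their median was -0.25, and 0.01 without replicate 3 of both groups. The 3 were nrp2a, a semaphorin and VEGF co-receptor gene, and the type II cadherin genes cdh6 and cdh19. Levels of nrp2a were 233, 230.4 and 141 CPM in cardiac crest, against 48.1, 40.7 and 36.5 CPM in non-crest (2.29 ± 0.32, edgeR adjusted p = 0.0136). For cdh6 they were 224, 277 and 252 CPM in cardiac crest, against 84.9, 56.2 and 42.7 CPM in non-crest (2.06 ± 0.30, edgeR adjusted p = 0.0170). The scarcer cdh19 lay at 12.1, 10.7 and 13.4 CPM in cardiac crest, against 0.392, 0.165 and 0.398 CPM in non-crest (5.20 ± 0.65, edgeR adjusted p = 0.00797). Groups did not overlap in any of the 3, but each was lost in at least 1 fit without a library. The highest adjusted p was 0.0813 without cardiac crest replicate 2 for nrp2a, 0.0951 without cardiac crest replicate 2 for cdh6 and 0.0522 without cardiac crest replicate 1 for cdh19. In the protocadherin family of 19 tested genes pcdh9 rose (3.46 ± 0.60) and pcdh20l fell, with no read (0) in cardiac crest, against 431 in non-crest.

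The following cell surface families held 1 call, beside 1.5% of all tested genes. None of 29 integrins, 54 collagens, 11 laminins, 29 Eph receptors and ephrins or 54 matrix metalloprotease and ADAM genes was called, and 1 of 44 semaphorin and plexin family genes was, nrp2a. When replicate 3 of both groups was left out, 4 collagen genes, 2 metalloprotease and ADAM genes and 1 Eph or ephrin gene fell, against 3.05% of all tested genes. The N-cadherin gene cdh2 had 129.5, 189 and 199 CPM in cardiac crest, against 361, 292 and 202 CPM in non-crest, chosen after its values were seen, with a log2 fold change of -0.70 ± 0.29 (edgeR adjusted p = 0.426). The chemokine receptor gene cxcr4b stood at 180.1, 175 and 227 CPM in cardiac crest and 15.9, 111 and 16.2 CPM in non-crest, with non-crest replicate 2 far above the other non-crest libraries (edgeR adjusted p = 0.297; also chosen after its values were seen). Its ligand gene cxcl12a had 26.7, 29.6 and 22.1 CPM in cardiac crest, against 63.9, 79.1 and 70.4 CPM in non-crest (-1.45 ± 0.29, edgeR adjusted p = 0.0632). Without replicate 3 of both groups, erbb3b, a neuregulin receptor gene of crest and glia, and pdgfra, a receptor gene of crest mesenchyme, also rose, at edgeR adjusted p of 0.0336 and 0.0467; they are the only other risers of the adhesion list in that fit.

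The endothelin receptor genes ednrab and ednrba were higher in every cardiac crest library than in any non-crest library, yet did not pass with all 6 libraries. Endothelin signalling acts on crest cells of the arches through the A receptor and on pigment precursors through the B receptor. The A receptor gene ednrab stood at 2409.7, 1425 and 868 CPM in cardiac crest and 132, 80.4 and 1.02 CPM in non-crest. The groups did not overlap, yet non-crest replicate 3 lay far below its own group, and the log2 fold change of 4.60 ± 1.30 had an edgeR adjusted p of 0.195. Without replicate 3 of both groups it rose (4.27, edgeR adjusted p = 0.00483). The B receptor gene ednrba lay at 9.63, 9.34 and 5.33 CPM in cardiac crest, against 0.392, 0.0825 and 0 CPM in non-crest (edgeR adjusted p = 0.0282 without replicate 3, and 0.0754 with all 6). With all 6 libraries 1 of the 20 tested genes of the endothelin and neuropeptide receptor list rose, against 0.29% of all tested genes. It was the leukotriene receptor gene cysltr1. It had 29.7, 25.04 and 11.3 CPM in cardiac crest, against 0.336, 0.742 and 0.0885 CPM in non-crest (5.91 ± 0.83, edgeR adjusted p = 0.0144, and 0.0804 without cardiac crest replicate 2). The other A receptor gene, ednraa, chosen after its values were seen, overlapped between the groups at 8.15, 12.1 and 4.19 CPM in cardiac crest, against 3.08, 19.7 and 10.96 CPM in non-crest.

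Of 22 pigment cell genes 0 passed with all 6 libraries, and their median of 0.73 was the highest of the 27 lists. It was 0.23 without replicate 3 of both groups, 0.27 without cardiac crest replicate 3 and 0.23 without non-crest replicate 3. In those fits the crest regulators had 0.74, 0.57 and 0.52. Each of those fits tested 24 pigment cell genes, so the genes behind the median changed along with the libraries. Transcripts of trpm1b, a melanophore cation channel gene, were at 232, 192 and 82.0 CPM in cardiac crest, against 18.4, 7.81 and 0.288 CPM in non-crest. Those of gpr143, a melanosomal receptor gene, were at 107, 73.8 and 27.9 CPM in cardiac crest, against 11.6, 9.40 and 2.72 CPM in non-crest. For tfec, encoding an MiT family factor of pigment precursors, levels were 107, 89.0 and 179 CPM in cardiac crest, against 11.4, 14.49 and 0.288 CPM in non-crest. The groups did not overlap in these 3 genes, and non-crest replicate 3 was the lowest library in each. Together with sox5 they rose without replicate 3 of both groups, with edgeR adjusted p between 0.00660 and 0.0159. Melanin synthesis genes were scarce and overlapped between the groups: tyr had 0.694, 3.46 and 0.372 CPM in cardiac crest, against 0.308, 0.522 and 0.111 CPM in non-crest, and tyrp1b had 0.134, 3.90 and 0 CPM in cardiac crest, against 0.308, 0.825 and 0 CPM in non-crest. For the melanophore master regulator gene mitfa levels were 27.8, 12.6 and 8.38 CPM in cardiac crest, against 8.37, 1.98 and 0.199 CPM in non-crest, so that cardiac crest replicate 3 and non-crest replicate 1 nearly met (edgeR adjusted p = 0.487). These last 3 genes were chosen after their values were seen. In 15 of the 22 genes non-crest replicate 3 was more than 2-fold below both other non-crest libraries, against 5518 of the 19648 tested genes.

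Genes of arch mesenchyme did not pass with all 6 libraries (0 of 33, median 0.17). Without replicate 3 of both groups 3 of them rose and 1 fell, with a median of -0.07. Over all tested genes 0.698% rose and 3.05% fell in that fit. Transcripts of dlx2a, a homeobox gene of the arches, stood at 862, 627 and 408 CPM in cardiac crest, against 34.3, 9.98 and 0.266 CPM in non-crest. Non-crest replicate 3 was again the lowest, and the edgeR adjusted p was 0.117 with all 6 libraries and 0.0102 without replicate 3. Summed over the 8 Dlx genes of the table, levels were 889, 687 and 451 CPM in cardiac crest and 54.1, 68.9 and 15.8 CPM in non-crest. Summed over the 5 AP-2 genes they were 472, 484 and 478 CPM in cardiac crest and 101, 113 and 31.7 CPM in non-crest. Neither sum overlapped between the groups, and the AP-2 sum was nearly level across cardiac crest. In cardiac crest most of the Dlx sum was dlx2a and most of the AP-2 sum was tfap2a, so the sums mainly restate these genes. Without overlap and higher in cardiac crest were 2 of 5 tested Dlx and 2 of 4 tested AP-2 genes, against 8.76% of all tested genes. With all 6 libraries 0 of these Dlx and AP-2 genes were called.

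Among higher genes with a standard symbol and 10 CPM or more, the 3 steepest rises lay outside all lists, which together held 9 of the 57 higher genes. The growth hormone gene gh1, known from the pituitary, (ENSDARG00000038185, chromosome 3, 22197190 to 22202365, GRCz10) stood at 2519, 2736 and 968 CPM in cardiac crest, against 0.140, 0.192 and 0.199 CPM in non-crest. In all, 244774 reads fell in the gene in cardiac crest, against 21 in non-crest, and it was called in every fit that left out a library. Counts per gene do not show whether these reads came from the gene itself or from a like sequence in a transgene, which was not tested. The tocopherol transfer protein gene ttpa lay at 19.7, 10.3 and 15.9 CPM in cardiac crest, against 0.280, 0.0550 and 0 CPM in non-crest. For mocos, whose enzyme completes the molybdenum cofactor of xanthine dehydrogenase, levels were 9.89, 19.8 and 8.502 CPM in cardiac crest, against 0.168, 0.220 and 0 CPM in non-crest. Their log2 fold changes were 7.195 ± 1.14 and 6.68 ± 1.09, and the highest edgeR adjusted p in a fit that left out a library was 0.117 without cardiac crest replicate 1 and 0.156 without cardiac crest replicate 2. Transcripts of inka1a, which encodes a kinase inhibitor known from frog and fish crest, were at 447, 270.1 and 796 CPM in cardiac crest, highest in replicate 3, and 22.8, 21.1 and 43.0 CPM in non-crest (4.08 ± 0.58, edgeR adjusted p = 0.0154, rising to 0.0783 without non-crest replicate 1). The vesicle and lipid transfer gene vps13d lay at 547, 539 and 315 CPM in cardiac crest, against 69.5, 55.0 and 32.0 CPM in non-crest (3.21 ± 0.38, edgeR adjusted p = 0.00675), and this call held in every fit that left out a library. The DNA damage checkpoint kinase gene atr stood at 96.2, 93.0 and 59.0 CPM in cardiac crest, against 13.2, 8.25 and 4.38 CPM in non-crest (3.33 ± 0.44, edgeR adjusted p = 0.0103). In both genes the groups did not overlap, and non-crest replicate 3 was the lowest library.

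Among abundant higher genes several had roles in cell shape, adhesion or signalling. For rflnb, encoding a filamin-binding protein, levels were 83.3, 64.9 and 31.4 CPM in cardiac crest, against 1.88, 3.96 and 6.995 CPM in non-crest (3.75 ± 0.67, edgeR adjusted p = 0.0365). The adhesion receptor gene adgrg6, needed for glial myelination, had 27.8, 27.1 and 11.4 CPM in cardiac crest, against 1.82, 4.29 and 2.13 CPM in non-crest (3.04 ± 0.56), with 53.6% of its bases inside another gene. Chosen after its values were seen, cyth1b, encoding an exchange factor for ARF GTPases, stood at 293, 323 and 327 CPM in cardiac crest, against 73.2, 64.6 and 56.2 CPM in non-crest. Its log2 fold change was 2.29 ± 0.26, and the call held in every fit that left out a library. The ramp2 gene, encoding a partner of the calcitonin receptor-like receptor, had 277, 235 and 249 CPM in cardiac crest, against 92.2, 77.3 and 65.8 CPM in non-crest (1.72 ± 0.27) and gave the smallest rise called; it too was chosen after its values were seen.

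Genes qdpra and pcbd1, for recycling the hydroxylase cofactor tetrahydrobiopterin, rose; they were chosen after their values were seen. Transcripts of qdpra, encoding dihydropteridine reductase, were at 165, 128 and 107 CPM in cardiac crest, against 25.3, 16.6 and 17.9 CPM in non-crest (2.77 ± 0.34, edgeR adjusted p = 0.00771). Those of pcbd1, encoding the carbinolamine dehydratase of the same cycle, were at 117, 124 and 63.8 CPM in cardiac crest, against 23.0, 26.5 and 24.3 CPM in non-crest (2.05 ± 0.35, edgeR adjusted p = 0.0326). The qdpra call held in every fit that left out a library, while pcbd1 reached an adjusted p of 0.178 without cardiac crest replicate 2. The pigment pteridine synthesis gene gch2, chosen likewise, had 10.4, 16.2 and 43.8 CPM in cardiac crest and 3.50, 2.72 and 0 CPM in non-crest without overlap (edgeR adjusted p = 0.358).

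Receptors and regulators of growth gave isolated rises. With all 6 libraries 0.29% of all tested genes rose. Among 28 genes of retinoic acid signalling 1 rose, the retinoid X receptor gene rxraa, at 195, 268 and 117 CPM in cardiac crest, against 56.6, 42.5 and 36.7 CPM in non-crest (2.11 ± 0.36, edgeR adjusted p = 0.0311, and 0.156 without cardiac crest replicate 2). In the fit without replicate 3 of both groups 4 genes of the list fell beside that rise, against 3.05% of all tested genes falling. Retinoic acid-degrading cyp26a1 was among them, at 0.0672, 0.176 and 12.54 CPM in cardiac crest, against 44.96, 17.02 and 99.5 CPM in non-crest, where cardiac crest replicate 3 was the highest of its group. In the cell cycle list 1 of 38 rose, the cyclin D2 gene ccnd2a, at 398, 237 and 237 CPM in cardiac crest, against 92.6, 77.6 and 73.9 CPM in non-crest (1.87 ± 0.34, edgeR adjusted p = 0.0428, and 0.179 without cardiac crest replicate 1). The list's summed level overlapped between the groups, and its median was 0.03, or -0.12 without replicate 3 of both groups. For kctd15a, chosen after its values were seen and known in zebrafish to restrain AP-2 activity, levels were 55.6, 50.4 and 31.2 CPM in cardiac crest, against 6.78, 13.97 and 4.41 CPM in non-crest, with an edgeR adjusted p of 0.0499 that was the nearest to the threshold among the higher genes.

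Skin genes gave more falls than any other of the 27 lists with all 6 libraries. Of 32 tested epidermis genes 13 fell and 0 rose, against 1.21% of all tested genes falling, and the median log2 fold change was -3.95. In the fit without replicate 3 of both groups 20 fell, against 3.05% of all tested genes. Intermediate filament genes led by abundance. The periderm keratin gene krt4 stood at 144, 86.2 and 210.2 CPM in cardiac crest, against 4985, 12669 and 4352 CPM in non-crest (-5.59 ± 0.59, edgeR adjusted p = 0.00456). For krt92, another keratin gene, levels were 9.36, 4.46 and 5.92 CPM in cardiac crest, against 884, 2897 and 809 CPM in non-crest (-7.78 ± 0.72, edgeR adjusted p = 0.00291, 55.9% of its bases shared with another gene). Among 16 tested keratin genes 4 fell, krt18a.1 being the mildest at 292, 261 and 158 CPM in cardiac crest, against 974, 1914 and 965 CPM in non-crest (-2.40). Their summed level was 915, 806 and 601 CPM in cardiac crest and 8663, 20201 and 8159.9 CPM in non-crest, non-crest replicate 2 standing highest.

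Other falls covered the secreted, calcium-binding and junction proteins of skin. The protein disulfide isomerase family gene agr1 stood at 0.0672, 1.06 and 1.31 CPM in cardiac crest, against 643, 1094 and 905 CPM in non-crest (-10.13 ± 1.04, edgeR adjusted p = 0.00383). The ictacalcin gene icn2, of the S100 family, had 0.425, 0.411 and 0.768 CPM in cardiac crest, against 204, 366 and 198 CPM in non-crest (-8.87 ± 0.50, edgeR adjusted p = 0.000531). Both were called in every fit that left out a library, as were 7 of the 13 skin genes, and the highest adjusted p was 0.211 without cardiac crest replicate 2 for anxa1c. Of 16 tested annexins, which bind membranes in the presence of calcium, 6 fell, against 1.21% of all tested genes. Among them anxa2a had 2.71, 3.02 and 2.48 CPM in cardiac crest, against 182, 368 and 142 CPM in non-crest (-6.35 ± 0.45), and anxa1c had 0.0224, 1.53 and 5.01 CPM in cardiac crest, against 559, 1260.0 and 649 CPM in non-crest (-8.57 ± 1.45). In anxa1c, as in agr1, cardiac crest replicate 1 was the lowest of the 6 libraries. Annexin sums were 264, 245 and 319.9 CPM in cardiac crest and 1159, 2477 and 1328 CPM in non-crest.

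Of 21 tested desmosome and plakin genes 5 fell (1.21% of all tested genes fell). The count was 9 without replicate 3 of both groups (3.05% of all tested genes) and 3 without cardiac crest replicate 3 alone (1.51%). Of the 5, 0 was called in every fit that left out a library. The envoplakin gene evpla stood at 0.0895, 2.76 and 1.09 CPM in cardiac crest, against 148, 243 and 60.0 CPM in non-crest (-6.84 ± 1.09). For the plakophilin gene pkp3a, which like evpla is also in the epidermis list, levels were 1.097, 1.12 and 2.21 CPM in cardiac crest, against 39.3, 43.5 and 16.3 CPM in non-crest (-4.43 ± 0.53). The desmoplakin gene, listed as DSP, fell less steeply, at 7.36, 6.37 and 4.41 CPM in cardiac crest, against 50.4, 40.6 and 19.4 CPM in non-crest (-2.54 ± 0.44). In the periplakin gene, listed as PPL, cardiac crest replicate 3 was the highest of its group, at 0.134, 0.294 and 4.46 CPM in cardiac crest, against 154, 315 and 173 CPM in non-crest (-7.03 ± 1.31, edgeR adjusted p = 0.0444, and 0.00152 without replicate 3 of both groups). Outside these lists eppk1, the epiplakin gene, had 0.515, 1.38 and 0.768 CPM in cardiac crest, against 259, 389.6 and 144 CPM in non-crest (-8.20 ± 0.56, edgeR adjusted p = 0.00112). The highest adjusted p of a leave-one-out fit among the 5 was 0.246 without cardiac crest replicate 2, for the desmoglein gene dsg2.1, named for that value.

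Regulators and enzymes of surface epithelium followed, in genes chosen after their values were seen. The splicing regulator gene esrp1 lay at 1.79, 3.67 and 2.58 CPM in cardiac crest, against 31.6, 78.8 and 18.4 CPM in non-crest (-3.96 ± 0.59). The transglutaminase gene tgm1 had 0.157, 0.294 and 0.0744 CPM in cardiac crest, against 9.75, 12.8 and 3.08 CPM in non-crest (-5.54 ± 0.85). Prostaglandin synthase gene ptgs2b had 0.224, 0.206 and 0.521 CPM in cardiac crest, against 53.1, 88.8 and 38.3 CPM in non-crest (-7.51 ± 0.59), called in every fit that left out a library. Not all genes of the epidermis list passed, tp63 and cdh1 being among those that did not. The factor gene of basal skin, tp63, stood at 33.7, 27.2 and 46.5 CPM in cardiac crest, against 36.4, 113 and 3.96 CPM in non-crest. The E-cadherin gene cdh1 had 25.2, 57.0 and 55.2 CPM in cardiac crest, against 146, 169 and 48.1 CPM in non-crest. In tp63 the groups overlapped and non-crest replicate 3 was the lowest library, while in cdh1 non-crest replicate 3 lay below cardiac crest replicates 2 and 3 (edgeR adjusted p = 0.917 and 0.290). Of 28 tested claudins 1 fell with all 6 libraries, against 1.21% of all tested genes. Without replicate 3 of both groups 4 of 31 fell, against 3.05% of all tested genes. The 1 with all 6 libraries was cldn23.1, which had 0 reads in cardiac crest replicates 1 and 2 (-9.89 ± 1.72).

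Endothelial genes fell in 11 of 27 tested members and rose in 0 (1.21% of all tested genes fell), with a median of -3.12. Without replicate 3 of both groups 13 fell, against 3.05% of all tested genes. The lectin gene clec14a was not read in cardiac crest (0 reads), against 62.9, 71.4 and 53.4 CPM or 7254 reads in non-crest, which makes it at least 2456-fold lower when 3 reads are allowed for the cardiac crest libraries together. Reads carry no molecular identifiers, so floors and counting intervals cover counting error only. The haemato-endothelial ETS factor gene etv2 stood at 1.01, 0 and 0.967 CPM in cardiac crest, against 173, 179 and 616 CPM in non-crest (-8.97 ± 1.38), highest in non-crest replicate 3. The related fli1b had 0.381, 0.323 and 1.14 CPM in cardiac crest, against 23.2, 18.8 and 20.4 CPM in non-crest (-5.07 ± 0.65, edgeR adjusted p = 0.00927). The vascular growth factor receptor gene kdrl, chosen after its values were seen, was lower by less, at 3.04, 3.49 and 3.05 CPM in cardiac crest, against 23.8, 19.2 and 22.3 CPM in non-crest (-2.77 ± 0.40). Of the 11 calls, those of clec14a and cdh5 held in every fit that left out a library, and the highest adjusted p was 0.188 without cardiac crest replicate 2 for erg. One ETS gene of the list, fli1a, overlapped between the groups, at 70.09, 86.8 and 49.3 CPM in cardiac crest, against 55.0, 67.9 and 51.2 CPM in non-crest (0.25 ± 0.30, edgeR adjusted p = 0.834).

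Blood precursor genes fell in 4 of 24 tested members and rose in 0, against 1.21% of all tested genes falling, with a median of -2.15. Leaving out replicate 3 of both groups, 9 fell (3.05% of all tested genes) and the median was -3.25. Without cardiac crest replicate 3 alone 8 fell (1.51% of all tested genes). Without non-crest replicate 3 alone 2 fell (1.4%). The stem cell leukaemia factor gene tal1 stood at 0.0224, 0.0587 and 1.36 CPM in cardiac crest, against 148, 198 and 296 CPM in non-crest (-8.84 ± 1.38, edgeR adjusted p = 0.0227). Its partner gene lmo2 had 5.98, 3.26 and 17.2 CPM in cardiac crest, against 379, 264 and 1209.6 CPM in non-crest (-6.23 ± 0.98, edgeR adjusted p = 0.0227). The embryonic globin gene hbae3 lay at 0.649, 0.705 and 5.90 CPM in cardiac crest, against 133, 152 and 322 CPM in non-crest (-6.46 ± 1.06, edgeR adjusted p = 0.0271). In all 3, cardiac crest replicate 3 was the highest of its group and non-crest replicate 3 the highest of all libraries. Another globin gene, hbbe3, had 0.179, 0.176 and 10.6 CPM in cardiac crest, against 337, 334 and 1163 CPM in non-crest; it did not pass with all 6 libraries (edgeR adjusted p = 0.128) and fell without replicate 3 of both groups (0.000274). The red cell master factor gata1a, chosen after its values were seen, had 0.0224, 0.0294 and 6.94 CPM in cardiac crest, against 15.7, 19.3 and 78.2 CPM in non-crest (edgeR adjusted p = 0.470 with all 6 libraries, and 0.00254 without replicate 3). Summed globins were at 2.91, 1.17 and 19.0 CPM in cardiac crest and 519.9, 534 and 1601 CPM in non-crest. None of the 4 calls held in every fit that left out a library, the highest adjusted p being 0.204 without cardiac crest replicate 1 for hbae5.

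Striated muscle transcripts were scarce in cardiac crest replicates 1 and 2 and abundant in replicate 3. Summed over the 44 somite and muscle genes of the table, levels were 374, 419.9 and 14324 CPM in cardiac crest and 18919, 18176 and 15159 CPM in non-crest. In 26 of the 40 tested members cardiac crest replicate 3 was more than 2-fold above both other cardiac crest libraries, against 1697 of the 19648 tested genes. The muscle actin gene actc1b stood at 4.54, 13.8 and 7953 CPM in cardiac crest, against 8552, 8979 and 5838 CPM in non-crest. For the actin gene acta1b levels were 10.9, 7.49 and 745 CPM in cardiac crest, against 1080.0, 1141 and 580.5 CPM in non-crest, and for the muscle creatine kinase gene ckma 3.63, 2.88 and 239 CPM in cardiac crest, against 500.3, 609.9 and 144 CPM in non-crest. Cardiac crest replicate 3 reached the range of the non-crest libraries in these 3 genes. With all 6 libraries 1 of the 40 fell, the fast troponin T gene tnnt3a, which was low in all 3 cardiac crest libraries at 0.828, 1.85 and 0.917 CPM in cardiac crest, against 46.4, 22.5 and 8.10 CPM in non-crest (-4.36 ± 0.69, edgeR adjusted p = 0.0237, and 0.131 without cardiac crest replicate 1). Over all tested genes 1.21% fell with all 6 libraries. A total of 24 of 42 fell without replicate 3 of both groups (3.05% of all tested genes fell). Without cardiac crest replicate 3 alone 18 of 42 fell (1.51% of all tested genes). In the fit without replicate 3 of both groups actc1b was among those that fell (-9.88, edgeR adjusted p = 0.00152). The list's median was -2.01 with all libraries and -4.78 without replicate 3. Whether cells other than crest contributed to cardiac crest replicate 3 was not tested.

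**Figure D3:**
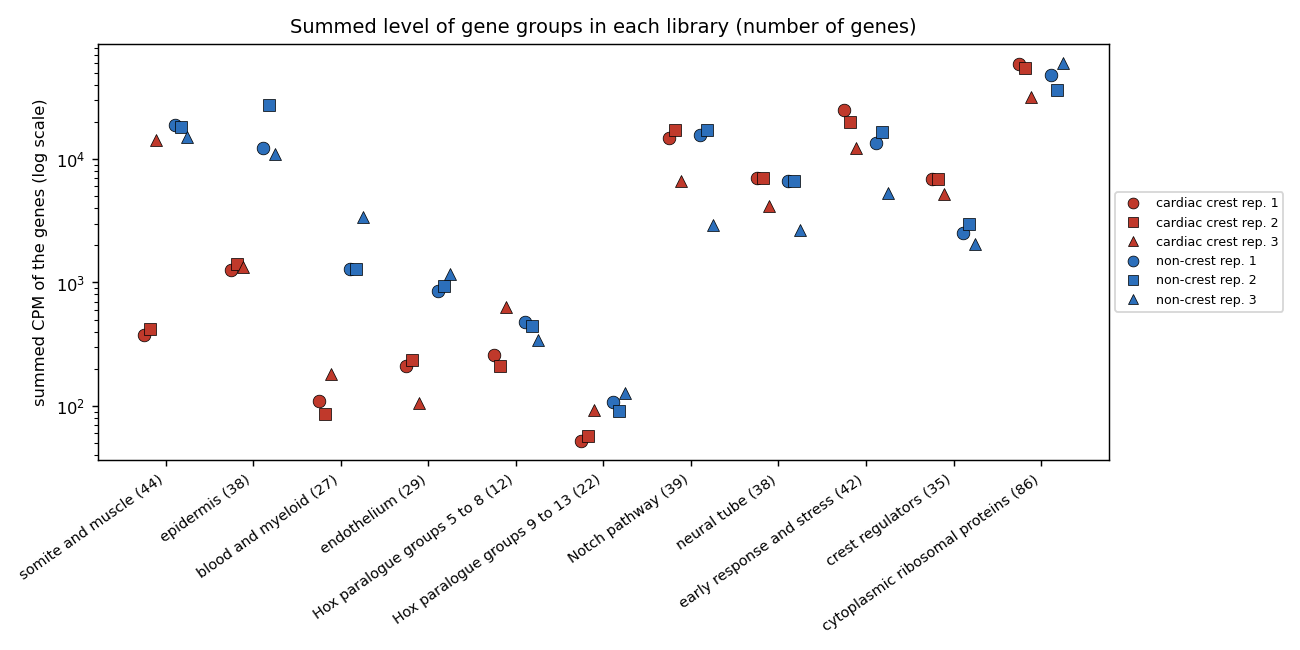
Summed CPM of 11 gene groups in each library on a log axis, with cardiac crest (red, left) beside non-crest (blue, right) and 1 symbol per replicate; the number of genes summed is given with each name. Cardiac crest replicate 3 reaches 14324 CPM of somite and muscle genes where replicates 1 and 2 have 374 and 419.9 CPM, while non-crest replicate 3 has the lowest Notch pathway sum, 2936 CPM.

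Markers of other tissues differed in whether they were also higher in cardiac crest replicate 3. Among the cardiac crest libraries summed blood genes were highest in that one, at 109, 86.1 and 182 CPM in cardiac crest, against 1279.8, 1284 and 3376 CPM in non-crest. So were genes of the endoderm list, at 179.8, 180.0 and 369 CPM in cardiac crest, against 5243, 12902 and 4501 CPM in non-crest. That list includes the skin keratin gene krt4, which made up most of its sum in every non-crest library and in cardiac crest replicates 1 and 3. The endoderm sums are therefore no measure of endoderm alone. In 11 of 24 blood genes and 9 of 18 endoderm genes cardiac crest replicate 3 was more than 2-fold above both other cardiac crest libraries. The epidermis and endothelium sums gave no such excess. The summed epidermis level of cardiac crest replicate 3, 1329 CPM, lay between the 1253 and 1401 CPM of replicates 1 and 2, and its endothelium sum was the lowest of the 3. The endothelium sums were 211, 233 and 105 CPM in cardiac crest and 852, 945 and 1172 CPM in non-crest. Counted by gene, 6 of 32 epidermis and 4 of 27 endothelium genes were more than 2-fold above both other cardiac crest libraries in replicate 3. So were 12 of 36 neural tube genes and 6 of 16 notochord and floor plate genes, against 1697 of the 19648 tested genes. Among the genes with the largest ratio to the other cardiac crest libraries were the muscle genes myl13, chrnd, encoding an acetylcholine receptor subunit, and aldoab, encoding an aldolase. Levels of chrnd were 0.0224, 0.0587 and 67.9 CPM in cardiac crest, against 38.9, 65.7 and 52.2 CPM in non-crest. The complement gene cfd, at 0.0672, 0.0881 and 188 CPM in cardiac crest, against 9.38, 32.4 and 6.33 CPM in non-crest, changed sign with this library, its log2 fold change being 2.02 with all 6 libraries and -7.96 without replicate 3 of both groups (edgeR adjusted p = 0.00788). The neurogenin gene neurog1, of cranial sensory neurons, changed likewise, at 0.515, 1.47 and 73.6 CPM in cardiac crest, against 27.1, 22.7 and 9.59 CPM in non-crest (0.39 and -4.62, edgeR adjusted p = 0.0129 without replicate 3).

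Summed Hox transcripts gave a smaller shift in cardiac crest replicate 3, which was not confined to posterior groups. Summed Hox genes of paralogue groups 1 to 4 were at 106, 101 and 219 CPM in cardiac crest and 199, 174 and 200.1 CPM in non-crest. The tailbud and segmentation sums were 480, 701 and 419 CPM in cardiac crest, lowest in replicate 3, and 751, 1251 and 320 CPM in non-crest. Most of that sum was lfng, also in the Notch list, in every library but non-crest replicate 3. It stood at 311, 463 and 232 CPM in cardiac crest, against 496, 942 and 53.3 CPM in non-crest. The sums are therefore no measure of tailbud alone. Of the 15 tested members, 4 were more than 2-fold above both other non-crest libraries in replicate 3, and 7 more than 2-fold below. Summed levels of Hox genes of paralogue groups 5 to 8 were 257, 212 and 636 CPM in cardiac crest and 482, 443 and 340.0 CPM in non-crest. Those of groups 9 to 13 were 51.8, 56.8 and 92.8 CPM in cardiac crest and 108, 91.0 and 127 CPM in non-crest. Most of that sum was hoxb9a in every library but non-crest replicate 3. By gene, cardiac crest replicate 3 was more than 2-fold above both others of its group in 2 of 4, 2 of 5 and 3 of 4 tested genes. These counts are for groups 1 to 4, 5 to 8 and 9 to 13. For non-crest replicate 3 they were 0, 1 and 3. Over all 19648 tested genes the counts were 1697 and 1528. Transcripts of hoxb5b were at 45.04, 31.1 and 293 CPM in cardiac crest, against 239.8, 210.3 and 130.1 CPM in non-crest, and those of hoxb9a at 50.5, 55.0 and 73.2 CPM in cardiac crest, against 103, 90.4 and 39.1 CPM in non-crest; both were chosen after their values were seen. The highest hoxb5b library was cardiac crest replicate 3, and its log2 fold change was -0.63 with all 6 libraries and -2.47 without replicate 3 (edgeR adjusted p = 0.836 and 0.0115). Some genes of groups 9 to 13 were highest within each group in replicate 3: hoxd9a had 0, 0 and 6.197 CPM in cardiac crest, against 1.71, 0.330 and 24.00 CPM in non-crest, and hoxd11a had 0.0224, 0.0294 and 3.17 CPM in cardiac crest, against 2.91, 0 and 10.3 CPM in non-crest. So was hoxb10a, at 1.23, 1.61 and 4.91 CPM in cardiac crest, against 0.280, 0.165 and 18.1 CPM in non-crest. None of the 13 tested Hox genes was called with all 6 libraries.

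Heart muscle genes were low in cardiac crest, and several were also near 0 in non-crest replicate 3. Of 22 tested heart genes 1 fell, the cardiac troponin T gene tnnt2a, at 0.649, 1.61 and 0.297 CPM in cardiac crest, against 22.2, 21.8 and 6.84 CPM in non-crest (-4.27 ± 0.77, edgeR adjusted p = 0.0381, and 0.192 without cardiac crest replicate 1). Over all tested genes 1.21% fell. The cardiac myosin light chain gene cmlc1 stood at 0.515, 0.0587 and 0 CPM in cardiac crest, against 27.9, 10.7 and 0 CPM in non-crest, and fell without replicate 3 of both groups (edgeR adjusted p = 0.0394). Chosen after their values were seen, myl7, whose promoter drives the line's green heart reporter, had 1.39, 0.0587 and 0.372 CPM in cardiac crest, against 42.3, 53.3 and 0.0885 CPM in non-crest, and tnni1b 0.201, 5.11 and 0.744 CPM in cardiac crest, against 59.8, 32.3 and 0.0664 CPM in non-crest. In these last 3 genes non-crest replicate 3 lay no higher than the highest cardiac crest library. In 13 of the 22 heart genes it lay more than 2-fold below both other non-crest libraries, against 5518 of the 19648 tested genes.

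The summed level of genes of Notch signalling, which keeps neural progenitors undifferentiated, was lowest in the libraries numbered 3. The 39 genes of the pathway list summed to 14736, 17141 and 6649 CPM in cardiac crest and 15707, 17203 and 2936 CPM in non-crest, and 0 of 37 tested members passed. Most of the sum came from her genes in every library. By gene, replicate 3 was more than 2-fold below both others of its group in 10 of 37 in cardiac crest and 16 of 37 in non-crest. Over all 19648 tested genes those counts were 1874 and 5518. The Hes-related target gene her4.2 stood at 2669, 3648 and 2258 CPM in cardiac crest, against 4315, 4892 and 410.2 CPM in non-crest, and her12 at 676, 918 and 112 CPM in cardiac crest, against 1181, 1092 and 33.8 CPM in non-crest. In her4.2 only non-crest replicate 3 was low, while in her12 both libraries numbered 3 were. The her4 and her12 genes belong to tandem families of similar copies, among which reads may be split. Early response and stress genes, which are induced quickly by dissociation and growth signals, were likewise lowest in replicate 3 of each group, with sums of 24992, 20052 and 12403 CPM in cardiac crest and 13568, 16454 and 5314 CPM in non-crest. Replicate 3 was more than 2-fold below both other libraries of its group in 20 of 40 such genes in cardiac crest and in 28 of 40 in non-crest. Over all tested genes those counts were 1874 and 5518 of 19648. None of the 40 passed with all 6 libraries, and without replicate 3 of both groups atf3 rose, at 812, 919.9 and 302 CPM in cardiac crest, against 398, 386 and 53.0 CPM in non-crest (edgeR adjusted p = 0.0322).

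Neural tube genes passed in the fit without replicate 3 of both groups and not with all 6 libraries. With all 6 libraries 0 of 36 passed and the median was -0.76, whereas without replicate 3 of both groups 1 of 37 rose and 9 fell (0.698% and 3.05% of all tested genes), with a median of -1.41. Without cardiac crest replicate 3 alone 2 fell (1.51% of all tested genes), and without non-crest replicate 3 alone 1 fell (1.4%). Neural progenitor gene sox19a lay at 77.1, 125 and 331 CPM in cardiac crest, against 691, 638 and 204 CPM in non-crest (edgeR adjusted p = 0.409 with all libraries, and 0.00531 without replicate 3). The eye and hindbrain factor gene pax6b stood at 4.37, 7.22 and 51.5 CPM in cardiac crest, against 95.1, 59.7 and 27.0 CPM in non-crest (edgeR adjusted p = 0.621, and 0.00689). In both, cardiac crest replicate 3 was the highest of its group and non-crest replicate 3 the lowest of its own, so the groups overlapped. The Delta ligand gene dld had 15.8, 23.99 and 29.7 CPM in cardiac crest, against 105, 60.7 and 63.6 CPM in non-crest without overlap (-1.71 ± 0.35, edgeR adjusted p = 0.0643). The 1 riser without replicate 3 was the Hes-related gene her6, at 2165, 2157 and 598 CPM in cardiac crest, against 848, 837 and 563 CPM in non-crest (edgeR adjusted p = 0.0172). In that gene cardiac crest replicate 3 lay below non-crest replicates 1 and 2.

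Non-crest replicate 3 also held transcripts that the other non-crest libraries lacked. Apolipoprotein genes led, which in early zebrafish are known from the yolk syncytial layer: apoa2 had 0, 0 and 2.03 CPM in cardiac crest, against 0.952, 2.64 and 166 CPM in non-crest. For apoa1a levels were 0, 1.38 and 0.0248 CPM in cardiac crest, against 1.43, 0.0825 and 104 CPM in non-crest, and for apoc1 1.03, 0.499 and 4.44 CPM in cardiac crest, against 0.448, 1.04 and 97.8 CPM in non-crest. In all 3 non-crest replicate 3 was the highest library. The related apoa1b fell with all 6 libraries, at 0.0224, 0.0587 and 0 CPM in cardiac crest, against 8.15, 2.83 and 75.7 CPM in non-crest (-10.14 ± 1.78, edgeR adjusted p = 0.0347). Cytoplasmic ribosomal protein genes summed to 59012, 55169 and 31949 CPM in cardiac crest and 48038, 36423 and 60245 CPM in non-crest, so both libraries numbered 3 lay outside the range of the other 2 of their group, on opposite sides. The median of the 80 tested members was -0.11 with all libraries and 0.46 without replicate 3 of both groups, and 0 passed in either fit.

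**Figure D4:**
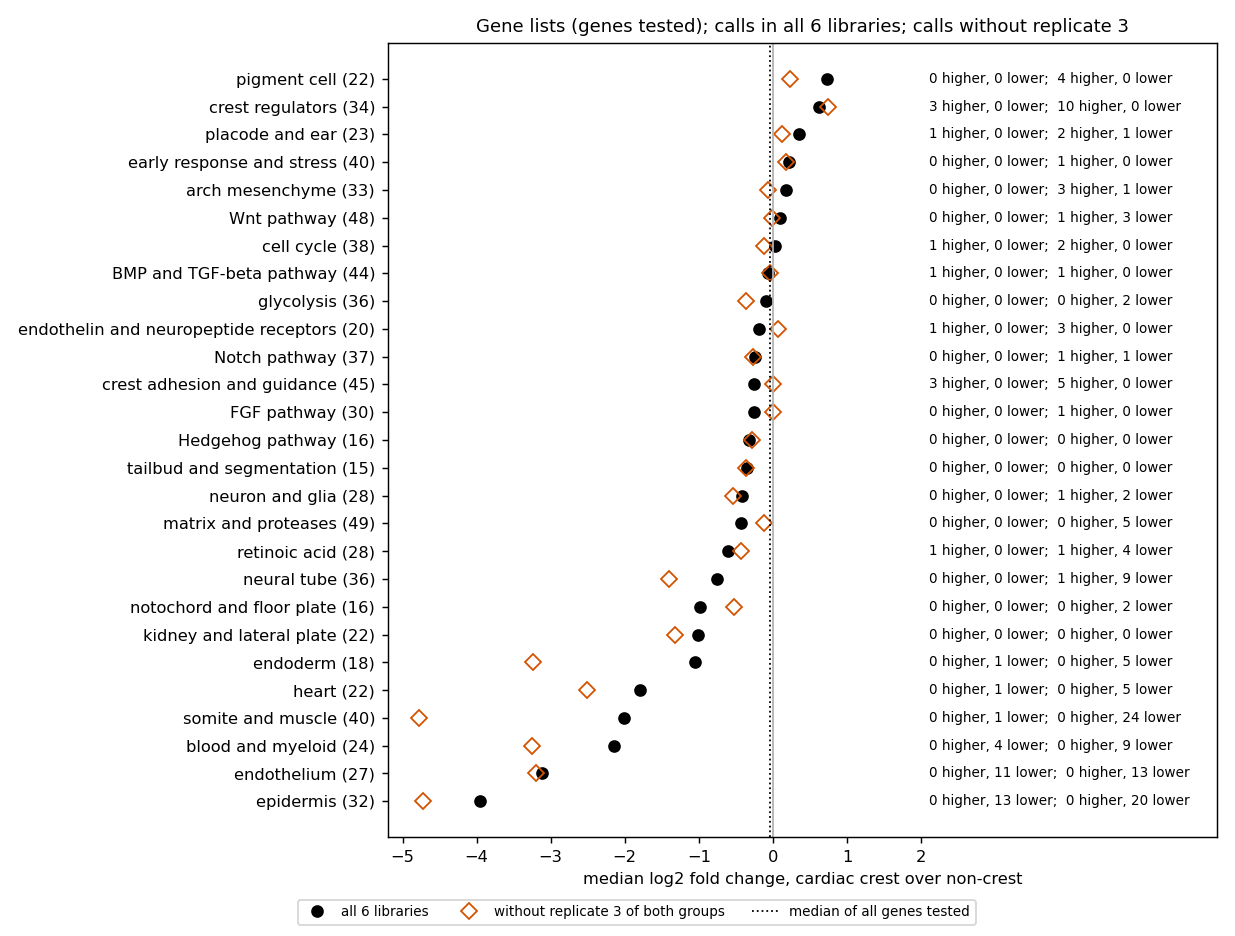
Median log2 fold change, cardiac crest over non-crest, of 27 gene lists (genes tested in brackets), with all 6 libraries (filled circles) and without replicate 3 of both groups (open diamonds); the text at the right gives the calls of each fit in that order. Epidermis, endothelium and blood stay low in both, while somite and muscle genes move from -2.01 to -4.78.

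Signalling pathways other than those above had few or no calls. With all 6 libraries 0 of 30 FGF, 0 of 48 Wnt and 0 of 16 Hedgehog pathway genes passed, and among 44 BMP and TGF-beta pathway genes the 1 rise was id2a. In that fit 0.29% of all tested genes rose. By edgeR's test without replicate 3 of both groups, 1 FGF gene rose, spry4, a feedback inhibitor of receptor signalling, at 218, 175 and 52.9 CPM in cardiac crest, against 62.5, 77.0 and 17.5 CPM in non-crest (adjusted p = 0.0374). In the Wnt list 1 rose and 3 fell in that fit, against 0.698% and 3.05% of all tested genes. The rise was ror2, a receptor gene of non-canonical Wnt signalling, at 62.0, 70.3 and 30.1 CPM in cardiac crest, against 22.9, 20.5 and 38.1 CPM in non-crest, and the falls were the ligand genes wnt7aa, wnt11r and wnt16. The nuclear mediator gene lef1 stood at 70.6, 83.6 and 47.0 CPM in cardiac crest, against 34.0, 30.6 and 12.95 CPM in non-crest without overlap (1.43 ± 0.39, edgeR adjusted p = 0.170).

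Lists for other cell types of the region, and for matrix, gave few calls or none. With all 6 libraries 0 of 49 matrix and protease genes, 0 of 28 neuron and glia genes, 0 of 15 tailbud and segmentation genes, 0 of 16 notochord and floor plate genes and 0 of 22 kidney and lateral plate genes passed. In the endoderm list of 18 the 1 fall was krt4, which is a skin keratin, and in the placode and ear list of 23 the 1 rise was sox10. With all 6 libraries 1.21% of all tested genes fell and 0.29% rose. Without replicate 3 of both groups 5 matrix genes and 5 endoderm genes fell, 2 placode genes rose, sox10 and the sensory progenitor gene atoh1b, and 1 placode gene fell. In that fit 1 neuron and glia gene rose and 2 fell, and 2 notochord and floor plate genes fell. Over all tested genes 0.698% rose and 3.05% fell in it. Transcripts of atoh1b were at 26.4, 23.5 and 11.2 CPM in cardiac crest, against 1.79, 1.79 and 0 CPM in non-crest (edgeR adjusted p = 0.00788 in that fit), with non-crest replicate 3 at 0.

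Several steep falls belonged to no list. Transcripts of mia, a secreted protein gene known from cartilage, were at 0, 0 and 0.0248 CPM in cardiac crest, against 20.7, 17.5 and 68.7 CPM in non-crest (-11.69 ± 1.201, edgeR adjusted p = 0.00383). The forkhead factor gene listed as FOXQ1, the 1 fall among 47 tested Fox genes, was at 0 in cardiac crest, against 5.49, 13.1 and 5.89 CPM in non-crest. Over all tested genes 1.21% fell. For GPR182, a receptor gene known from endothelium, levels were 0, 0.0294 and 0 CPM in cardiac crest, against 31.9, 29.2 and 8.61 CPM in non-crest (-10.88 ± 1.02, edgeR adjusted p = 0.00315). All 3 calls held in every fit that left out a library. Enzyme genes fell as well: uraha, of urate breakdown, had 0, 0.0587 and 0.0496 CPM in cardiac crest, against 10.3, 43.4 and 23.1 CPM in non-crest (-9.42 ± 1.01), and the sialic acid synthase gene listed as NANS had 0, 0.0587 and 0.0248 CPM in cardiac crest, against 9.64, 32.9 and 5.11 CPM in non-crest (-9.03 ± 1.17). The ubiquitin ligase gene dtx3la stood at 0.0224, 0.117 and 0.322 CPM in cardiac crest, against 40.1, 92.2 and 82.2 CPM in non-crest (-8.87 ± 0.89, edgeR adjusted p = 0.00347). In each of these genes the groups were far apart, with 1 CPM or less in every cardiac crest library.

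Genes that every cell uses showed no calls with all 6 libraries. That held for 46 proteasome subunits, 93 respiratory chain subunits, 67 mitochondrial ribosomal proteins, 72 translation factors, 71 splicing factors, 72 heat shock proteins, 17 histones, 21 tubulins and 42 kinesins. With all 6 libraries their medians lay between -0.23 for tubulins and 0.21 for translation factors, but these levels moved with replicate 3. In the fit without replicate 3 of both groups the median was 0.34 for respiratory chain subunits, against -0.15 with all libraries, so its direction turned. In the same fit it was 0.53 for mitochondrial ribosomal proteins (0.05 with all libraries), 0.40 for proteasome subunits (0.18) and -0.26 for kinesins (-0.02), and 1 heat shock protein gene fell. In the glycolysis list 0 of 36 passed with all libraries, and 2 fell without replicate 3 of both groups, against 3.05% of all tested genes. These were the muscle-enriched gapdh, at 15.3, 7.93 and 169 CPM in cardiac crest, against 300.1, 223 and 96.3 CPM in non-crest, and aldoab, at 0.313, 0.646 and 303 CPM in cardiac crest, against 800.0, 583 and 393 CPM in non-crest, in both of which cardiac crest replicate 3 was the highest of its group. Of 358 solute carrier genes 3 fell and 0 rose, a share no higher than the 1.21% of all tested genes that fell, the amino acid transporter gene slc38a5a being called at 1.16, 0.617 and 1.02 CPM in cardiac crest, against 20.6, 17.6 and 16.3 CPM in non-crest (-4.25 ± 0.51, edgeR adjusted p = 0.00688). Among 46 cytochrome P450 genes 3 fell, and 5 of 48 without replicate 3 of both groups (3.05% of all tested genes). They included cyp24a1, which inactivates vitamin D, at 0.157, 0.235 and 0.273 CPM in cardiac crest, against 26.9, 22.9 and 11.3 CPM in non-crest (-6.47 ± 0.57, edgeR adjusted p = 0.00246).

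Zebrafish carry many gene pairs from the genome duplication at the base of teleosts, many of them named with a final a or b. Pairs were matched here by symbols that differ only in that letter. Their origin was not checked, so not every pair need stem from that duplication. Of 2027 pairs in which both members were tested, 1155 (57.0%) had log2 fold changes of the same sign, with a Pearson r of 0.18 across pairs, which share libraries and are not independent replicates. Of the 55 called genes with a tested partner, 33 had a partner of the same sign. Both members of a pair were called in 1 case, anxa1a and anxa1b. The 9 higher genes had partners with a median log2 fold change of -0.44, 4 of them positive, and the 46 lower genes had partners with a median of -0.48, 29 of them negative.

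Individual pairs show how far the members separated. Beside nrp2a, its duplicate nrp2b stood at 97.0, 101 and 70.12 CPM in cardiac crest, against 83.1, 60.4 and 74.1 CPM in non-crest (0.30 ± 0.30), with overlap between the groups. Beside id2a, id2b lay at 28.0, 46.8 and 33.7 CPM in cardiac crest, against 26.2, 26.3 and 18.3 CPM in non-crest (0.62 ± 0.31). The partner of rxraa, rxrab, was scarce, at 1.01, 0.440 and 0.0991 CPM in cardiac crest, against 0.840, 0.962 and 4.98 CPM in non-crest (-2.21 ± 1.17), and that of inka1a, inka1b, stood at 5.51, 12.9 and 8.38 CPM in cardiac crest, against 11.6, 20.5 and 70.5 CPM in non-crest (-2.08 ± 0.75), highest in non-crest replicate 3. Among lower genes fli1b had fli1a as its partner, whose values are given above, and tnnt3a had tnnt3b, standing at 8.37, 4.58 and 1.31 CPM in cardiac crest, against 7.37, 3.77 and 3.23 CPM in non-crest (0.06 ± 0.74). None of these 6 partners was called, and a partner that missed the threshold is not shown to be equal between the groups.

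**Figure D5:**
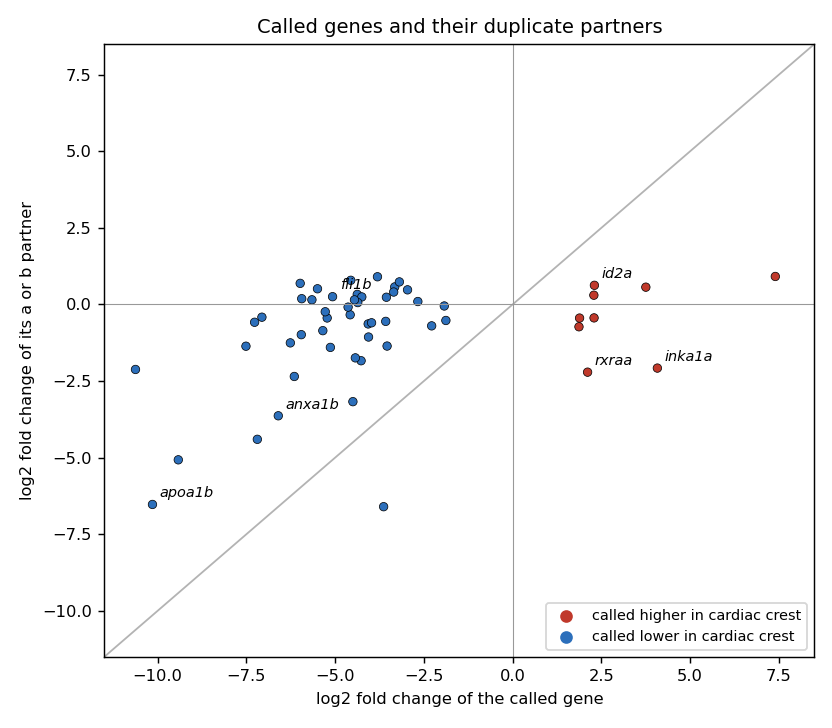
Each point is a called gene with its log2 fold change, cardiac crest over non-crest, on the x axis and that of its a or b partner on the y axis; the diagonal marks equal changes. Of the partners of the 46 lower genes (blue) 29 lie below 0, and of the 9 higher genes (red) 4 have a partner above 0.

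Some lower genes lay next to each other, with no other tested gene starting between them. The longest named run was on chromosome 16, from 23482753 to 23576061 (GRCz10), where the S100 family genes s100a10b, s100w, icn and icn2 stand in line. For s100w the cardiac crest libraries held 2 reads, against 1896 in non-crest, while s100a10b, named as the run's first gene, fell less, at 52.5, 36.4 and 28.3 CPM in cardiac crest, against 166, 305 and 121 CPM in non-crest (-2.28 ± 0.41). A second run on chromosome 16, from 42034000 to 42096849, held pycard, which encodes an inflammasome adaptor known from skin in fish, and the ETS genes etv2 and fli1b. On chromosome 5, from 64308737 to 64348528, anxa1d, anxa1c and anxa1b stood side by side, and on chromosome 25, from 31533283 to 31608285, the NADPH oxidase genes duox2 and duox. Such clustered families have similar sequences, and reads from near-identical copies may be split among them.

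Higher genes were more frequent on chromosome 4 than tested genes were. That chromosome held 10 of the 57 higher genes (17.5%), 3 of the 237 lower genes (1.27%) and 1122 of the 19648 tested genes (5.71%), a pattern noticed after the values were seen and given with no test. Among the 10 were the zinc finger genes znf1034, at 86.6, 97.1 and 57.9 CPM in cardiac crest, against 10.6, 9.49 and 3.30 CPM in non-crest (3.43 ± 0.46), and znf1084, at 101, 107 and 109 CPM in cardiac crest, against 27.6, 31.3 and 17.2 CPM in non-crest (2.09 ± 0.29). With cax1 these are the only 3 of the 10 with a standard symbol, and znf1084 was chosen after its values were seen. The cation exchanger gene cax1 stood at 64.3, 63.7 and 52.5 CPM in cardiac crest, against 11.3, 3.16 and 2.94 CPM in non-crest (3.43 ± 0.56). Zinc finger genes of this chromosome form a large family of similar copies, and counting covered introns, so their values are uncertain. The same holds for olfcg1 on chromosome 18, an olfactory receptor gene at 339, 322 and 250.1 CPM in cardiac crest, against 21.1, 21.2 and 6.35 CPM in non-crest with 15.3% of its bases inside another gene.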

How the data were processed

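RNA of sorted cells was made into libraries with the SMART-Seq v4 kit and sequenced as single-end reads, per the labels. The deposited counts are raw reads per gene from featureCounts 1.5.1, per the file headers, over whole genes including introns, with Ensembl 80 models on GRCz10 and without regard to strand. Bowtie2, Subread and DESeq are named in the submitters' processing notes. Reads over bases that genes share were not counted, since 4819 genes lying wholly inside another hold 0 reads. The 6 libraries held 44672047, 34062539 and 40345294 reads in cardiac crest and 35701534, 36371620 and 45172404 reads in non-crest. No molecular identifiers were used. Of 31953 identifiers, 16612 took symbols from the second table deposited by the authors and 9837 from a reference table, and 1348 identifiers share their symbol with another. That table also holds values of samples, and 6 such columns were not used.

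From the counts, CPM was computed on library totals. Differences were tested with edgeR 4.0.16 (R 4.3.3; default filter, TMM factors, robust quasi-likelihood fit of the 6 libraries, Benjamini-Hochberg over all tested genes, threshold 0.05), after the code was checked on simulated data. Library correlations used log2 CPM with a prior count of 2. Same-numbered libraries are not paired by the labels, so no block was used. Alternatives were other normalisation factors and filters, DESeq2 1.42.0, limma 3.58.1 voom with sample weights, a replicate block and fits without single libraries or without replicate 3 of both groups. Named genes are 5 identity markers, the 20 largest changes in each direction at 10 CPM or more with a standard symbol, the smallest p-values of each of 27 lists and 63 families (also without replicate 3), genes setting replicate 3 apart, and duplicate partners; other genes are marked where they appear. The comparison, lists and families were chosen with earlier results of these data known. A planned search of promoters for motifs was not run, as no sequence was used here.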

Additional observations from a re-analysis of the deposited data

How the results depend on the processing

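With all 6 libraries 294 genes were called, 57 higher in cardiac crest and 237 lower. DESeq2's test gave 1050 calls (297 higher, 753 lower), voom with sample weights gave 835 (192 higher, 643 lower), and edgeR's test without replicate 3 of both groups gave 752 (140 higher, 612 lower). They share 294, 292 and 264 of the 294 genes, and voom weighted non-crest replicate 3 at 0.285, the lowest of the libraries. Other factors, filters and dispersion settings gave 282 to 315 calls, within 1.5 times of 294. Fits without 1 library gave 93 to 361 calls, 14 to 74 higher and 78 to 308 lower. The labels do not tie libraries of the same number to a shared preparation, and not every same-numbered pair deviated together (correlations of 0.0299, 0.0528 and 0.1596). Cardiac crest and non-crest libraries of unlike number had correlations from -0.1694 to 0.1783. The columns of same-numbered libraries carry consecutive numbers, and whether they share a preparation was not tested. With a replicate block 284 genes were called, 50 higher and 234 lower, 221 of them shared with the fit without it. Of 4298 pairs of a named gene and an alternative, 3744 kept their direction and side of the threshold, 248 newly passed, 226 no longer passed, 76 changed sign with no call and 4 changed sign to a call. The 4 were cfd, at 2.02 with all libraries, -7.96 without replicate 3 of both groups and -7.62 without cardiac crest replicate 3, and neurog1, at 0.39, -4.62 and -4.34; fits without 1 other library gave up to 2.96 for cfd and 0.95 for neurog1. The causes were not tested.

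With 3 libraries a group, both libraries numbered 3 stood apart from their group, which limits every call: a gene that missed the threshold is not shown to be equal between the groups. At the depth of these libraries a count of 0 over the cardiac crest group allows 3 reads. Counting over introns without strand cannot separate antisense or nested transcripts.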
